A study of Mus musculus with 16 samples.

Results

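The subunits of the mitochondrial respiratory chain and of ATP synthase that nuclear genes encode were described in sorted cortical microglia. They were taken as the protein-coding genes whose mouse symbols follow the naming patterns of complex I (Nduf), II (Sdh), III (Uqcr and Cyc1), IV (Cox4 to Cox8) and V (Atp5). Of the 53850 genes in the deposited table, 88 met this definition: 38 of complex I, 4 of complex II, 9 of complex III, 18 of complex IV and 19 of complex V. Symbols came from GENCODE M21 for 86 genes and from RefSeq for 2, Ndufb1 and Atp5md. RNA-seq had been done on 16 libraries in 4 groups of 4: females on PLX3397, females on control chow, males on PLX3397 and males on control chow. All mice were young C57BL/6J animals, with no transgene named. PLX3397, an inhibitor of the CSF1 receptor on which microglia depend, was given in chow for 1 week, and microglia of the brain cortex were isolated by FACS. The study addressed what lies behind a difference between the sexes in depletion by PLX3397. Neither the sort gate nor ages in days are given, nor is it stated that each of the 4 libraries came from its own animal, so p-values measure the spread between these libraries, which may be technical.

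Complexes I and II pass electrons from NADH and succinate to ubiquinone, complex III passes them on to cytochrome c, and complex IV reduces oxygen with them. Complexes I, III and IV pump protons across the inner mitochondrial membrane, and complex V makes ATP as the protons flow back. Complex II is encoded wholly in the nucleus, whereas the others combine nuclear subunits with catalytic or membrane subunits encoded by mitochondrial DNA, so both genomes must supply each of them. In microglia this machinery is known for its support of surveillance, and activated cells are known to shift towards glycolysis.

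The values were normalised read counts that summed to 32641505 to 44162201 per library, and the steps between low values put the reads behind them at about 22141061 to 78764765. The 19594 genes that reached a value of 10 in 4 or more libraries were tested with limma on log2(value + 1), and a change passed at a Benjamini-Hochberg adjusted p under 0.05. A log2 fold change on this scale understates the change of low genes. Summed levels of the 8 microglia markers were 1685013 to 1936568 in females on PLX3397, against 2097070.5 to 2594365 in females on control chow, and 1052975 to 1562667 in males on PLX3397, against 2247381 to 2406953 in males on control chow. Summed levels of the 7 neutrophil markers were 802 to 3076 in females on PLX3397, against 0 to 4.97 in females on control chow. In males they were 9780.0 to 69033 on PLX3397, against 262 to 3194 on control chow. The neutrophil markers rose in 5 of 7 cases in females and in 7 of 7 in males, and the microglia markers fell in 5 of 8 and 7 of 8. The markers of border-associated macrophages fell in 4 of 6 cases in females and 6 of 6 in males. Their summed levels were 778 to 1061 in females on PLX3397, against 1441 to 3375 in females on control chow, and 506 to 743 in males on PLX3397, against 1818 to 2843 in males on control chow, with Lyve1 and Cd209f at 0 in every library of males on PLX3397. Of the endothelial markers 1 of 3 fell and of the oligodendrocyte markers 1 of 3 rose in each sex. Of the astrocyte markers 1 of 4 rose in females and 0 passed in males, and 0 of 4 monocyte and 0 of 5 neuron markers passed in either sex. Summed monocyte markers were still 685 to 5860 in males on PLX3397, against 341 to 674 in males on control chow. Astrocyte sums were 166 to 629 against 32.3 to 135 there, and oligodendrocyte sums 3821 to 4625 against 2823 to 3356. In females these sums overlapped. Neuron sums overlapped in both sexes. Endothelial sums lay lower on PLX3397 in both, at 407 to 570 against 966 to 1704 in males. S100a8, S100a9, Ly6g, Retnlg and Ltf were at 0 in every library of females on control chow, and Ly6g in every library of males on control chow. Fewer cells of a type and less RNA per cell cannot be told apart in such bulk samples. As for libraries that stood apart, male PLX3397 replicate 3 had the highest S100a8 value (14419). Male control replicate 4 had an Xist value of 516, against 14.7 to 31.4 in the other male control libraries. Calls are therefore also given with both of these libraries left out.

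Of the 88 genes, 83 were tested: all of complexes I, II and III, 14 of 18 in complex IV and 18 of 19 in complex V. The 5 below the filter were Cox4i2, Cox7b2, Cox8b, Cox8c and a second Ensembl entry for Atp5o. Per kilobase of transcript, the median level over the tested genes of a complex was 1848 normalised counts for complex I, 3273 for II, 3043 for III, 2444 for IV and 2902 for V. Atp5b, the catalytic beta subunit of ATP synthase (9819), and Cox4i1, the largest nuclear-encoded subunit of complex IV (9392), had the highest levels per kilobase of all 83. Cox7a1, a heart and muscle isoform, had the lowest (22.2).

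PLX3397 left most of these transcripts without a detected change, in a data set where many other genes moved. In females, 3 of the 83 tested subunit genes rose and 0 fell; over all tested genes 5.34% passed, 2.67% as rises. The 3 were Cox4i1 of complex IV and Ndufb9 and Ndufb10 of complex I. In males, Cox4i1 rose and Ndufa9 of complex I fell, which makes 2 of 83, while 11.7% of all tested genes passed, 4.16% as rises and 7.52% as falls. Before adjustment, p was under 0.05 for 12 of the 83 genes in females, all higher on PLX3397, against 17.1% of all tested genes. Over all 19594 genes in females, 1660 were such rises and 1687 such falls. In males p was under 0.05 for 11 of the 83, 5 higher and 6 lower, against 23.8%. There 1970 of all genes were such rises and 2690 such falls. In both sexes 79 of the 83 genes had a 95% interval of the fold change that lay within 2-fold in either direction, so for those a change larger than that was outside the interval. The exceptions in both sexes were Cox6a2, Cox6b2, Cox7a1 and Atp5g2. The median log2 fold change of the 83 genes was 0.16 in females and 0.03 in males, beside -0.00 and 0.02 over all tested genes. In females 76 of the 83 log2 fold changes lay above 0, and in males 45 did, against 49.6% and 51.8% of all tested genes.

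**Figure D1:**
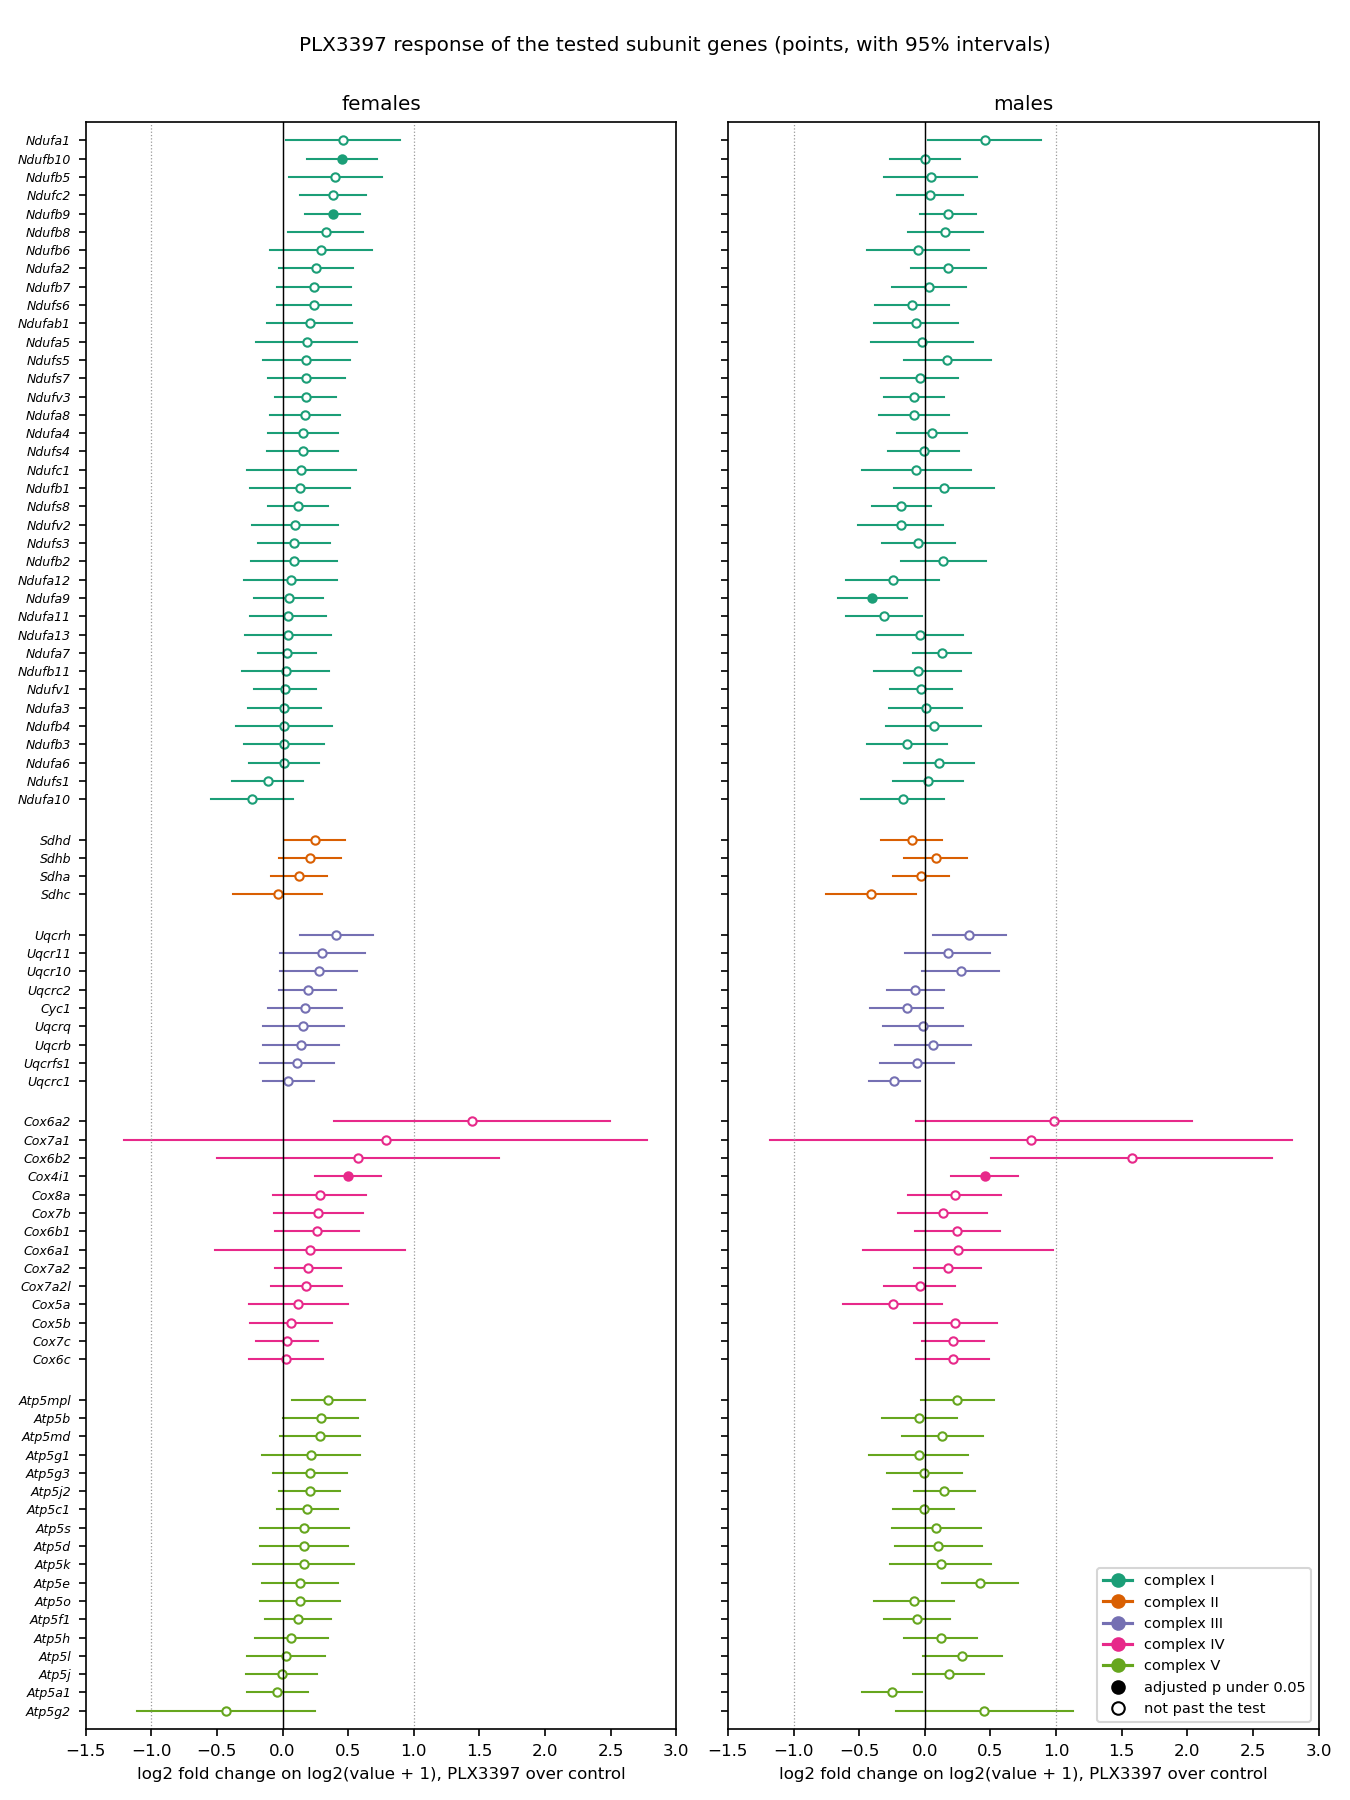
Log2 fold changes (PLX3397 over control chow, on log2(value + 1)) of the tested subunit genes reported here in females (left) and males (right), grouped by complex, with 95% intervals; filled points passed at an adjusted p under 0.05. The filled points are Cox4i1 in both panels, Ndufb9 and Ndufb10 in females and Ndufa9 in males; dotted lines mark a 2-fold change.

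Cox4i1 (chromosome 8) encodes a membrane-spanning subunit that joins complex IV early in its assembly. Its values were 8082, 7551, 9499 and 7895 in females on PLX3397, against 6030.3, 5094, 6221 and 6036 in females on control chow. The log2 fold change in females was 0.50 ± 0.12 (SE, adjusted p = 0.0197). In males its values were 8346, 6748, 8279 and 10669 on PLX3397, against 6109, 5859, 6464 and 6071 on control chow. All 4 PLX3397 libraries lay above all 4 control libraries in each sex. The log2 fold change in males was 0.46 ± 0.12 (SE, adjusted p = 0.0189). With both libraries that stood apart left out, it was 0.50, adjusted p = 0.0382 in females and 0.46, adjusted p = 0.0789 in males, where the call was lost. Both libraries are of males, so the female fold change could not move. The call was lost in females without PLX3397 replicate 3 (adjusted p = 0.0642) or control replicate 2 (adjusted p = 0.0662), and in males without control replicate 2 (adjusted p = 0.0559). The neutrophil markers moved in the same direction in both sexes, and their part in the Cox4i1 result was not tested. Cox4i1 shares 154 exonic bases with Emc8 on the opposite strand. Emc8, a subunit of the endoplasmic reticulum membrane complex, had a log2 fold change of 0.12 (adjusted p = 0.722) in females and rose by 0.55 (adjusted p = 0.0114) in males. Whether the counting used strand is not given, so reads of the shared stretch cannot be assigned.

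**Figure D2:**
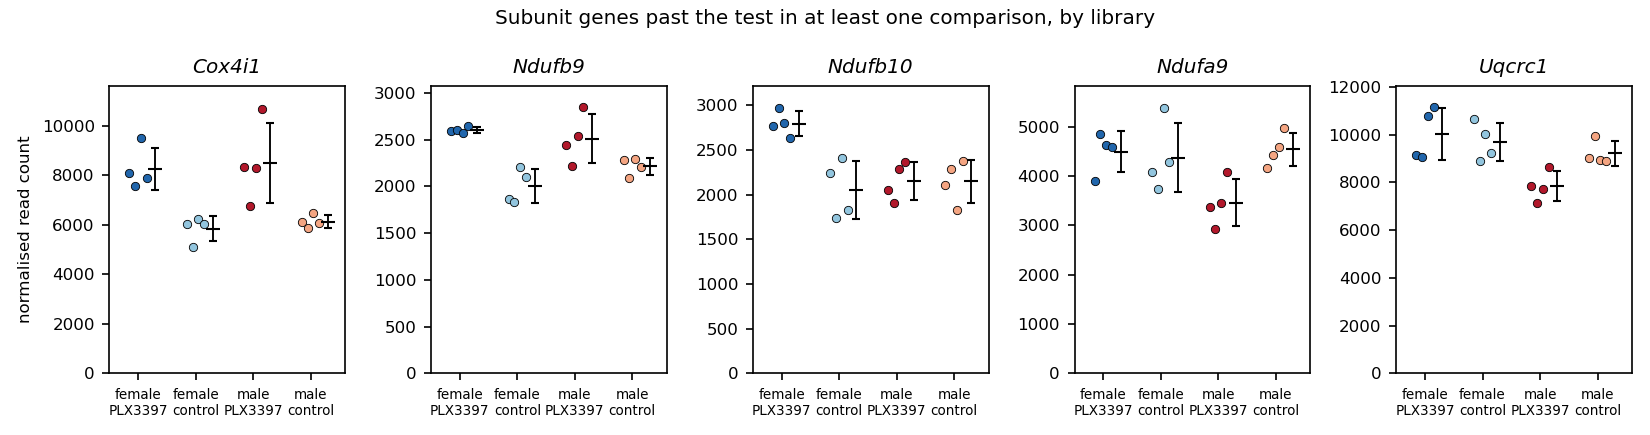
Normalised read counts of Cox4i1, Ndufb9, Ndufb10, Ndufa9 and Uqcrc1 in each library, by group; points are the 4 libraries of a group and bars the mean ± SD. Cox4i1 lies higher in all PLX3397 libraries than in all control libraries of the same sex, Ndufb9 and Ndufb10 do so in females, and Ndufa9 lies lower in all males on PLX3397 than in all males on control chow.

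In complex I, the NADH dehydrogenase, the catalytic core genes did not pass in either sex. Core genes include Ndufv1, Ndufv2 and Ndufs1 of the NADH-oxidising module and Ndufs3, Ndufs7 and Ndufs8 of the ubiquinone-reducing module. The log2 fold changes of these genes lay between -0.11 (Ndufs1) and 0.18 (Ndufs7) in females, and between -0.19 (Ndufv2) and 0.02 (Ndufs1) in males. Ndufs7, which holds the last iron-sulfur cluster before ubiquinone, ranged over 4446 to 5227 in females on PLX3397 and 3336 to 5355 in females on control chow, which overlap.

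The 3 complex I genes that passed encode accessory subunits, which surround the core and hold no redox centre. Of the 38 tested complex I genes 30 are accessory, so these 3 calls do not set accessory genes apart from the core. Ndufb9 (chromosome 15) lies in the membrane arm. Its values were 2589, 2599.6, 2568 and 2646 in females on PLX3397, against 1869, 1831, 2209.5 and 2098 in females on control chow. The 4 PLX3397 libraries stood close together and above every control library, with a log2 fold change of 0.38 ± 0.10 (SE, adjusted p = 0.0318) in females. In males it was 0.18 ± 0.10 (SE, adjusted p = 0.307). Ndufb10 (chromosome 17), also of the membrane arm, had values of 2765, 2972, 2803 and 2633 in females on PLX3397, against 2242, 1734, 2415 and 1826 in females on control chow. Again the female groups did not overlap, and the log2 fold change was 0.46 ± 0.13 (SE, adjusted p = 0.0440) in females and 0.00 ± 0.13 (SE, adjusted p = 0.994) in males. With both libraries that stood apart left out, neither female call held (adjusted p = 0.0588 for Ndufb9 and 0.0618 for Ndufb10). Both libraries are of males, so the female fold changes could not move, and only the shared spread and the adjustment changed. Single libraries also cost these calls. With each of the 16 left out in turn, the female call was lost in 6 fits for Ndufb9 and in 11 for Ndufb10. Without female control replicate 2, the log2 fold change was 0.34 (adjusted p = 0.0894) for Ndufb9 and 0.38 (adjusted p = 0.127) for Ndufb10. Ndufb9 shares 201 exonic bases with Gm49356 on the same strand, a gene model with a mean value of 2.97.

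Ndufa9 (chromosome 6) encodes an accessory subunit at the junction of the peripheral and membrane arms. Its values were 3369, 2931, 3451 and 4080.3 in males on PLX3397, against 4172, 4418, 4592 and 4983 in males on control chow. All males on PLX3397 lay below all males on control chow, and the log2 fold change was -0.40 ± 0.12 (SE, adjusted p = 0.0473). In females the values were 3897, 4861, 4627 and 4585 on PLX3397, against 4087, 3745, 5374 and 4290.1 on control chow, and the groups overlapped (log2 fold change 0.05 ± 0.12 SE, adjusted p = 0.912). The male call was lost when the library totals were made equal (log2 fold change -0.24, adjusted p = 0.171), under upper-quartile scaling (adjusted p = 0.0784) and with both libraries that stood apart left out (adjusted p = 0.193). Ndufc2 had the next smallest p of complex I in females, with 3884, 4250.1, 4143 and 3424 in females on PLX3397, against 3099, 2399, 3663 and 2956 in females on control chow, and a log2 fold change of 0.39 ± 0.12 (SE, adjusted p = 0.0734). Ndufa4 carries a complex I name but its protein is now assigned to complex IV. Its log2 fold change was 0.16 ± 0.13 (SE, adjusted p = 0.607) in females and 0.06 ± 0.13 (SE, adjusted p = 0.843) in males.

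Complex II, the succinate dehydrogenase, had 0 of 4 genes pass in either sex. Sdha and Sdhb, the flavoprotein and the iron-sulfur subunit, had log2 fold changes of 0.12 and 0.21 in females and -0.03 and 0.08 in males. Sdha ranged over 8379 to 9723 in males on PLX3397 and 8649 to 9573 in males on control chow. Of the membrane anchors, which bind ubiquinone, Sdhc had the smallest p of the complex in males and Sdhd in females. Sdhc had values of 1957, 1437, 1456 and 2305 in males on PLX3397, against 2486, 2525, 2308 and 2033 in males on control chow. The groups overlapped, and its log2 fold change was -0.41 ± 0.16 (SE, adjusted p = 0.120) in males and -0.04 ± 0.16 (SE, adjusted p = 0.944) in females. Sdhd had 4427, 4415, 4985 and 4184 in females on PLX3397, against 4188, 3663, 3797 and 3557 in females on control chow. These groups overlapped through 1 control library, and the log2 fold change was 0.24 ± 0.11 (SE, adjusted p = 0.253) in females and -0.10 ± 0.11 (SE, adjusted p = 0.631) in males.

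In complex III, the cytochrome bc1 complex, 0 of 9 genes passed for PLX3397 in either sex, and all 9 log2 fold changes in females lay above 0. Cyc1, the haem subunit that hands electrons to cytochrome c, and Uqcrfs1, the Rieske iron-sulfur subunit, had log2 fold changes of 0.17 and 0.11 in females and -0.14 and -0.06 in males. Uqcrh, the hinge protein at the cytochrome c1 docking site, had the smallest p of the complex in both sexes. Its values were 1369, 1370.3, 1495 and 1238 in females on PLX3397, against 941, 857, 1249 and 1105 in females on control chow. In males they were 1309, 1197, 1316 and 1565 on PLX3397, against 1059, 1005, 1137 and 1042 on control chow, with no overlap. Its log2 fold change was 0.41 ± 0.13 (SE, adjusted p = 0.0907) in females and 0.34 ± 0.13 (SE, adjusted p = 0.119) in males.

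Uqcrc1 (chromosome 9), a core protein related to mitochondrial processing peptidases, was the 1 subunit gene of the 83 that passed between the sexes on PLX3397. Its values were 9134, 9056, 10772 and 11157 in females on PLX3397, against 7847, 7157, 7728 and 8663 in males on PLX3397. The female libraries all lay above the male libraries, with a log2 difference (females minus males) of 0.35 ± 0.09 (SE, adjusted p = 0.0394). On control chow the values were 10665, 8886, 10029.9 and 9248 in females, against 9038, 9963, 8933 and 8909.9 in males, and the log2 difference was 0.07 ± 0.09 (SE, adjusted p = 0.988). The call on PLX3397 was lost under each other scaling, with a log2 difference of 0.15, adjusted p = 0.259 at equal library totals, and with both libraries that stood apart left out (adjusted p = 0.114). In the same comparison 7 of 8 microglia markers were higher and 6 of 7 neutrophil markers lower in females, and their part in the Uqcrc1 result was not tested.

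The stretch around the start of a gene is shown for Ndufa9 and Uqcrc1, 2 of the 3 genes that passed and had a window, which hold one of 3 motifs of factors known for control of nuclear-encoded mitochondrial genes. The windows run from 250 bases before to 50 bases after the start, from RefSeq on GRCm38.p6, and capitals mark the motif. Ndufa9 lies on the minus strand at chr6:126849095-126849394, with a YY1 motif 29 bases after the start. Uqcrc1 lies on the plus strand at chr9:108936398-108936697. Its window holds a single palindromic stretch that matches the NRF1 letters once on each strand, 30 and 32 bases after the start.
Ndufa9: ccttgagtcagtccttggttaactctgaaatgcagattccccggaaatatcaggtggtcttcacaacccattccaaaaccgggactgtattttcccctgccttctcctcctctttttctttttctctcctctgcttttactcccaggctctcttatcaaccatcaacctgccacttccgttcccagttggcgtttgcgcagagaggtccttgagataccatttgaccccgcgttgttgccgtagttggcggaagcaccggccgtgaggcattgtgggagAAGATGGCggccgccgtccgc
Uqcrc1: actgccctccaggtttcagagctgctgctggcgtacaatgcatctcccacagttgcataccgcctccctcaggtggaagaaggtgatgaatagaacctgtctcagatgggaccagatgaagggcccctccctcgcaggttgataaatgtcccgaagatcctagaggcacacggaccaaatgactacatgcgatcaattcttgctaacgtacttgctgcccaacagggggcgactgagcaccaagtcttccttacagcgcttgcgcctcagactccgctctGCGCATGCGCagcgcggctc
A window was listed for 71 of the 88 genes. Cox4i1 and Ndufb9 had none and were not searched. The letters searched on both strands were GCGCATGC for NRF1, AAGATGGC for YY1 and CCGGAAGT for ETS factors. A gene counted once, with a match in any of its windows. The 71 genes include Cox7b2 and Cox8b, which were below the filter. NRF1 letters stood in a window of 10 of 71 (14.1%) of the subunit genes and of 639 of 12190 (5.24%) of the tested genes with a window. For YY1 the counts were 10 of 71 (14.1%) and 586 of 12190 (4.81%), and for ETS 5 of 71 (7.04%) and 973 of 12190 (7.98%). The YY1 letters stood in a window of 7 of 34 genes of complex I and of 0 of 13 genes of complex IV. Ndufb10, the other gene that passed and had a window, held none of the 3. These matches describe letters in a window, and no binding was measured.

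Complex IV, the cytochrome c oxidase, had the highest median log2 fold change of the 5 complexes in both sexes: 0.24 in females and 0.23 in males, where the other 4 ranged over 0.14 to 0.17 in females and -0.07 to 0.11 in males. Of its 14 tested genes, 14 lay above 0 in females and 12 in males, but Cox4i1 alone passed. These counts and medians include 3 low isoform genes, of which Cox7a1 passed the filter mostly through libraries on PLX3397. The 10 widely expressed genes alone had medians of 0.20 in females and 0.22 in males. In females another complex had the highest median in 2 of the alternatives, with complex III at 0.20 against 0.17 for complex IV without female PLX3397 replicate 1 and complex III at 0.22 against 0.20 for complex IV without female PLX3397 replicate 2. Cox8a, a small membrane subunit, had 4655, 4657, 4772 and 3271 in females on PLX3397, against 3737, 2641, 4449 and 3506 in females on control chow, and the groups overlapped (log2 fold change 0.28 ± 0.17 SE, adjusted p = 0.431). Cox5a, a matrix-side subunit, had the smallest p of complex IV for the difference between responses, at 0.36 (adjusted p = 0.663). Cox7a2l, which joins complexes III and IV into supercomplexes, had a log2 fold change of 0.18 ± 0.13 (SE, adjusted p = 0.533) in females and -0.04 ± 0.13 (SE, adjusted p = 0.895) in males.

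Several complex IV subunits have isoform genes known for other tissues, and these were low in microglia beside their widely expressed partners. Per kilobase, Cox4i2, the lung isoform, stood at 2.58 against 9392 for Cox4i1, and Cox6b2, the testis isoform, at 162 against 5586 for Cox6b1. Cox7a1 stood at 22.2 against 2547 for Cox7a2. The pair of subunit VIa was close: Cox6a2, the heart and muscle isoform, stood at 212 and Cox6a1 at 308. Cox6a1 itself stood far below Cox4i1, Cox6b1 and Cox7a2. Levels per kilobase rest on the longest coding transcript of each gene, and its part in the low Cox6a1 level was not tested. Cox4i2 was at 0 in 9 libraries and at most 9.38 elsewhere. Cox7b2 was at 0 in 15 libraries, whereas its partner Cox7b reached 1647. Cox8b and Cox8c were listed at 0 in all 16.

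The 3 tested isoform genes had the largest log2 fold changes of complex IV and the widest errors. Cox6b2 had 224, 141, 105 and 156 in males on PLX3397, against 69.6, 15.5, 63.2 and 88.5 in males on control chow. The male groups did not overlap, and the log2 fold change was 1.57 ± 0.51 (SE, adjusted p = 0.0550) in males and 0.57 ± 0.51 (SE, adjusted p = 0.645) in females. It passed in males without the 2 libraries that stood apart (log2 fold change 2.02, adjusted p = 0.0466) and at equal library totals (1.73, adjusted p = 0.0367). Cox6a2 had 159.9, 273, 399 and 129 in females on PLX3397, against 132, 85.6, 130.2 and 26.5 in females on control chow. Here the groups overlapped, and the log2 fold change was 1.44 ± 0.50 (SE, adjusted p = 0.118) in females and 0.98 ± 0.50 (SE, adjusted p = 0.246) in males. Cox6a2 shares 70 exonic bases with Itgad on the opposite strand. Cox7a1 stayed at or under 31.03 in every library and passed the filter through 6 libraries, 5 of them on PLX3397. Its log2 fold change was 0.78 ± 0.94 (SE, adjusted p = 0.760) in females and 0.81 ± 0.94 (SE, adjusted p = 0.663) in males.

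**Figure D3:**
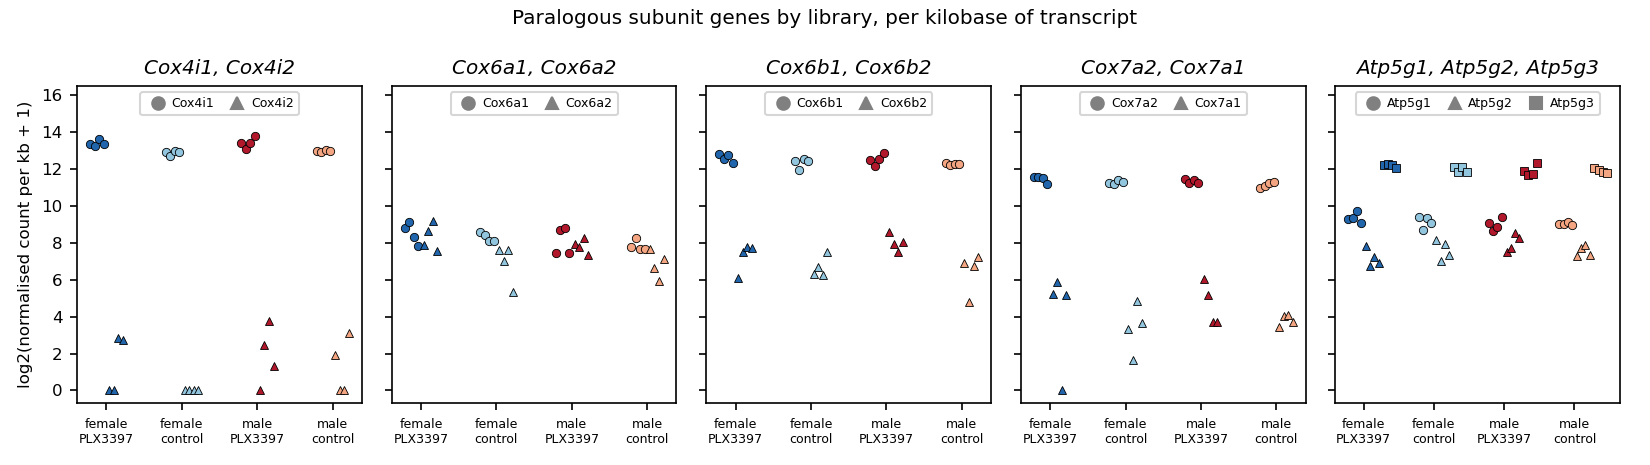
Levels per kilobase of transcript, as log2(normalised count per kb + 1), of complex IV isoform pairs and of the 3 subunit c genes of ATP synthase in each library, by group. Circles and squares mark the widely expressed genes, triangles the tissue isoforms and Atp5g2; Cox4i2, Cox6b2 and Cox7a1 lie far below their partners, and Cox6a2 lies near Cox6a1.

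In complex V, the ATP synthase, 0 of 18 tested genes passed in either sex. The F1 head is formed by Atp5a1, Atp5b, Atp5c1, Atp5d and Atp5e. Atp5b, with the highest values of all subunit genes, had 24097, 21116, 25944 and 18141 in females on PLX3397, against 20589, 14487, 21329 and 16864 in females on control chow. The groups overlapped, and the log2 fold change was 0.29 ± 0.13 (SE, adjusted p = 0.281) in females and -0.04 ± 0.13 (SE, adjusted p = 0.892) in males. Atp5a1, its partner in the catalytic hexamer, ranged over 9898 to 13890.5 in males on PLX3397 and 14106 to 15393 in males on control chow, with no overlap and a log2 fold change of -0.25 ± 0.11 (SE, adjusted p = 0.171). Atp5e, the smallest subunit of the head, lay on the other side of 0. Its values were 1479, 1303, 1559.8 and 1926 in males on PLX3397, against 1216, 1203, 1191 and 1036 in males on control chow. All males on PLX3397 lay above all males on control chow, with a log2 fold change of 0.42 ± 0.14 (SE, adjusted p = 0.0598) in males and 0.13 ± 0.14 (SE, adjusted p = 0.706) in females.

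The rotating ring of ATP synthase is built from subunit c, whose mature protein is the same from 3 genes. Per kilobase, Atp5g3 stood at 4119, Atp5g1 at 570.1 and Atp5g2 at 204. Atp5g3 had log2 fold changes of 0.21 ± 0.13 (SE, adjusted p = 0.478) in females and -0.00 ± 0.13 (SE, adjusted p = 0.993) in males, and Atp5g1 of 0.22 ± 0.18 (SE, adjusted p = 0.614) and -0.05 ± 0.18 (SE, adjusted p = 0.912). Atp5g2 had 172, 79.96, 113 and 90.1 in females on PLX3397, against 136, 157, 283 and 234 in males on PLX3397. The 2 sexes overlapped, and its log2 difference (females minus males) of -0.83 ± 0.32 (SE, adjusted p = 0.143) was the most negative of all 83 genes. Atp5mpl, a small proteolipid of the membrane part, had the smallest p of complex V in females, at 0.35 ± 0.13 (SE, adjusted p = 0.165). The inhibitor of the synthase, Atp5if1, is no member by symbol in the annotation used. It averaged 3797 ± 650.2 in females on PLX3397, 3508 ± 367 in females on control chow, 3344 ± 461 in males on PLX3397 and 3159 ± 213 in males on control chow (SD, n = 4 each). Its log2 fold change was 0.10 ± 0.14 (SE, adjusted p = 0.787) in females and 0.07 ± 0.14 (SE, adjusted p = 0.798) in males. Atp5s, counted here by its symbol, is named Dmac2l in RefSeq and is not counted among the structural subunits of the synthase.

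The difference between the female and the male response was past the limma test for 0 of the 83 genes and for 0 of all 19594 (0%). Before adjustment, p was under 0.05 for 3 of the 83 and for 2010 of all genes (10.3%). The 3 were Ndufa9 (0.45, adjusted p = 0.392), Ndufb10 (0.45, adjusted p = 0.390) and Sdhd (0.35, adjusted p = 0.448), given as female minus male log2 fold changes. For Cox4i1 the difference was 0.04, with a 95% interval of -0.32 to 0.40. The calls for Ndufb9 and Ndufb10 in females and for Ndufa9 in males are therefore not shown to belong to one sex. Between the sexes on PLX3397, Uqcrc1 was 1 of 83 against 5.43% of all tested genes, 4.28% as higher and 1.15% as lower in females. In that comparison p before adjustment was under 0.05 for 18 of the 83, against 22% of all genes (2603 higher and 1699 lower in females). Of the 18, 17 were higher in females. That direction held for the scaling as deposited: the median log2 differences of complexes I to V were then 0.18, 0.16, 0.24, 0.11 and 0.13, and at equal library totals -0.02, -0.04, 0.04, -0.09 and -0.07. Over all genes, 838 were higher and 226 lower in females as deposited, and 196 higher and 375 lower at equal totals. On control chow 0 of the 83 genes passed, against 0.0663% of all tested genes (0.0153% higher and 0.051% lower in females), and 1 had a p under 0.05 before adjustment, against 5.19% of all. That gene was Atp5e, at 0.30 (adjusted p = 0.950). The X-linked Ndufa1, Ndufb11 and Cox7b had log2 differences (females minus males) of -0.11, 0.16 and -0.01 on control chow.

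Groups that do not overlap were counted without a fold threshold. Between PLX3397 and control chow, 8 of the 83 genes had non-overlapping groups in females, against 10.4% of all tested genes, and 8 in males, against 17.6%. Females and males on PLX3397 did not overlap for 6 genes, against 12.1% of all, and on control chow for 1, against 3.55%. The subunit genes also shifted together between libraries of 1 group. The median deviation of the 83 genes from their group means was -0.21 on the log2 scale in female control replicate 2 and 0.16 in female control replicate 3. In males on PLX3397 it was -0.22 in replicate 2 and 0.20 in replicate 4. These libraries also had the lowest and the highest total of their groups. The totals were 38410670 and 44162201 in females on control chow, and 32641505 and 39584145 in males on PLX3397. Whether other genes of like level shifted in the same way was not tested. Over all tested genes the median deviation was at most 0.02 in each library. Normalisation across libraries can by itself hold that median near 0, so it does not show that the shift is particular to the subunit genes.

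Summed over their genes, the 88 subunits made up 0.592% ± 0.0314 of the library total in females on PLX3397 and 0.533% ± 0.0213 in females on control chow, and 0.594% ± 0.0325 in males on PLX3397 and 0.532% ± 0.0102 in males on control chow (SD, n = 4 each). The groups did not overlap in either sex. Shares of the total take every library as equal in total, and the fold changes above do not. At equal totals the median log2 fold change of all tested genes was 0.18 in males and -0.01 in females. A higher share in males is therefore not by itself a rise particular to the subunit genes. Complex IV held 0.0757% ± 0.00710 in females on PLX3397 and 0.0634% ± 0.00384 in females on control chow, which overlapped. It held 0.0826% ± 0.00585 in males on PLX3397 and 0.0623% ± 0.00189 in males on control chow, which did not. Complex V ranged over 0.171% to 0.194% in males on PLX3397 and 0.161% to 0.168% in males on control chow, with no overlap. Complex II ranged over 0.0519% to 0.0564% in females on PLX3397 and 0.0438% to 0.0516% in females on control chow, also without overlap. Complexes I and III overlapped in both sexes, complex II in males and complex V in females. As a share of the summed subunit counts within a library, which no scaling of libraries changes, complex IV took 11.9% to 13.3% in females on PLX3397, against 11.5% to 12.1% in females on control chow. In males it took 13.7% to 14.2% on PLX3397, against 11.5% to 12.1% on control chow, with no overlap. Complex I lay on the other side, at 32.9% to 34.2% in males on PLX3397 and 34.4% to 35.4% in males on control chow, with no overlap. Complex III took 11.95% to 12.5% in males on PLX3397 and 12.3% to 13.3% in males on control chow, which overlapped. The shares within a library add up to a fixed whole, so a rise in any of them is met by falls in others.

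**Figure D4:**
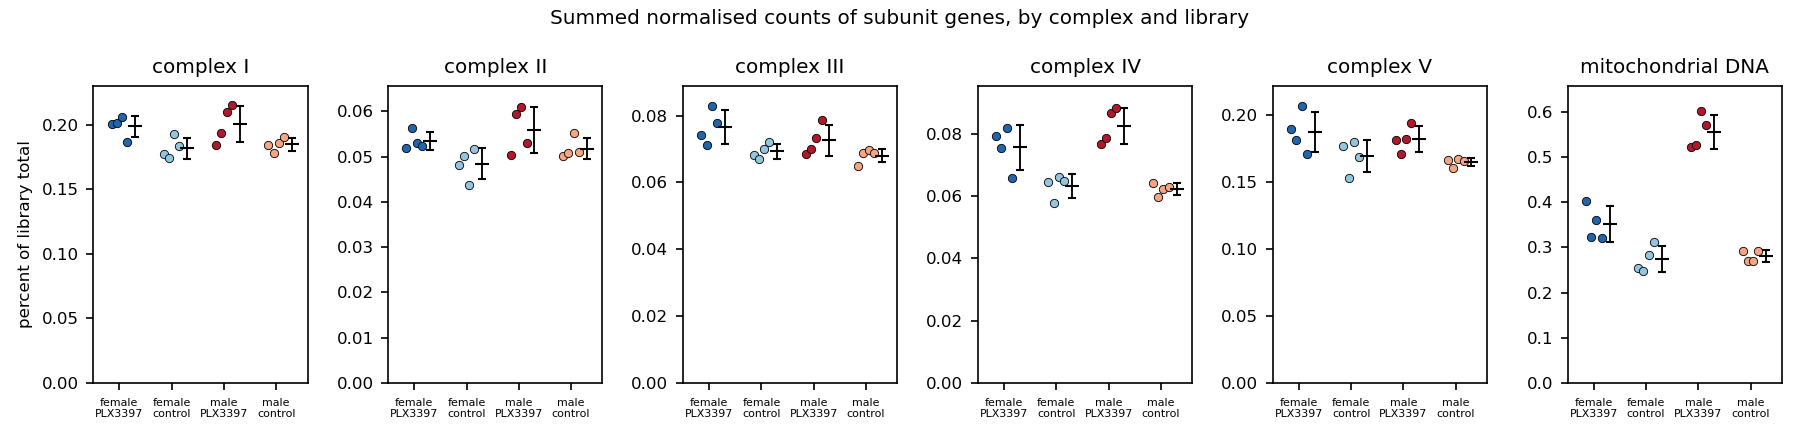
Summed normalised counts of the nuclear-encoded genes of each complex and of the 13 protein genes of mitochondrial DNA, as a percent of the library total, by group; points are libraries and bars the mean ± SD of 4. Complexes IV and V and mitochondrial DNA lie higher in all males on PLX3397 than in all males on control chow, where the median log2 fold change of all tested genes at equal library totals was 0.18. Complex II and mitochondrial DNA do so in females.

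The partner subunits encoded by mitochondrial DNA rose in males on PLX3397. Of these 13 genes, 12 rose in males and 1 rose in females, where 4.16% of all tested genes rose in males and 2.67% in females. Their medians were 0.84 in males and 0.34 in females on the log2 scale. mt-Nd4, a proton-pumping subunit of complex I, averaged 14759 ± 1422 in males on PLX3397 and 7306 ± 511 in males on control chow (SD, n = 4 each), a log2 fold change of 1.01 ± 0.11 (SE, adjusted p = 1.82e-05). mt-Co2, the complex IV subunit that accepts electrons from cytochrome c, rose in females as well. It averaged 15299 ± 2145 in females on PLX3397 and 10885 ± 1235 in females on control chow (SD, n = 4 each), a log2 fold change of 0.49 ± 0.12 (SE, adjusted p = 0.0217). The 13 genes differed between the responses in 0 cases, and 8 were lower in females than in males on PLX3397, against 1.15% of all tested genes. The summed counts of the 13 mitochondrial genes divided by those of the 88 nuclear genes, a ratio within each library, were 0.676, 0.550, 0.573 and 0.577 in females on PLX3397, against 0.475, 0.493, 0.514 and 0.578 in females on control chow. In males the ratios were 0.931, 0.919, 0.982 and 0.907 on PLX3397, against 0.551, 0.520, 0.498 and 0.542 on control chow. All ratios of males on PLX3397 lay above those of the other 3 groups, whereas the female groups overlapped. The neutrophil markers were likewise highest in males on PLX3397, and their part in the ratio and in the share of complex IV was not tested.

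Genes that build or regulate these complexes were counted as well, and their calls stand beside the 11.7% of all tested genes that passed in males and the 5.34% in females. Of 16 tested genes of the citric acid cycle, 0 passed in either sex. Among 18 complex I assembly factors, Timmdc1 rose (0.61 ± 0.17 SE, adjusted p = 0.0286) and Tmem186 fell (-0.55 ± 0.17 SE, adjusted p = 0.0445) in males, and 0 passed in females. Of the 4 complex II factors, Sdhaf1, which helps insert iron-sulfur clusters, fell in males (-0.61 ± 0.16 SE, adjusted p = 0.0161). Of 23 complex IV factors, Sco1, a copper chaperone (-0.73 ± 0.17 SE, adjusted p = 0.00945), and Cox16 (-0.49 ± 0.15 SE, adjusted p = 0.0381) fell in males, and 0 passed in females. The 6 complex III and 5 complex V factors had 0 calls in either sex. Among 7 carriers and channels, Vdac2 of the outer membrane fell in males (-0.56 ± 0.13 SE, adjusted p = 0.00883), and the 3 mobile carriers and supercomplex factors had 0 calls. In males, 2 of 18 and 2 of 23 were near or below the share of all tested genes, so these calls are given as single genes and show nothing about the lists. None of these lists had a gene past the test for the difference between responses.

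Of 13 tested regulators of mitochondrial biogenesis, 2 rose in females, where 2.67% of all tested genes rose, and 1 fell in males, where 7.52% of all fell. The male count was thus near the share of all genes. Ppargc1b, a coactivator of respiratory genes, ranged over 314 to 496 in females on PLX3397, against 16.01 to 243 in females on control chow. Its log2 fold change was 2.16 ± 0.57 (SE, adjusted p = 0.0329) in females. In males it ranged over 394 to 567 on PLX3397, against 128 to 179 on control chow, and the log2 fold change was 1.65 ± 0.57 (SE, adjusted p = 0.0728). The groups did not overlap in either sex. Nfe2l2, a regulator of antioxidant genes, rose in females (0.54 ± 0.11 SE, adjusted p = 0.00573). Gabpb1, a subunit of an ETS-family factor that acts on Cox and Atp5 promoters, ranged over 1105 to 1258 in males on PLX3397, against 1849 to 2083 in males on control chow, and fell by 0.73 on the log2 scale (adjusted p = 0.000208).

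The direction of the complex medians in males depended on the scaling of the libraries. As deposited, the male medians of complexes I, II, III, IV and V were -0.03, -0.07, -0.01, 0.23 and 0.11. At equal library totals they were 0.13, 0.09, 0.15, 0.39 and 0.27, with the median of all genes at 0.18 instead of 0.02. In females the medians were 0.14, 0.17, 0.17, 0.24 and 0.16 as deposited and 0.13, 0.16, 0.17, 0.23 and 0.16 at equal totals. The sign of the male medians of complexes I, II and III thus changed with the scaling, while those of complexes IV and V, and all 5 in females, stayed above 0 under each of the 4 scalings. The male median of complex III also turned, to 0.02, with both libraries that stood apart left out, and that of complex V was then 0.04. Single libraries moved the medians too. The male median of complex I was 0.00 without male PLX3397 replicate 1, 0.06 without replicate 2, -0.04 without replicate 3, -0.09 without replicate 4 and 0.00 without male control replicate 1. That of complex III was 0.01, 0.11, -0.03 and -0.09 without male PLX3397 replicates 1, 2, 3 and 4, and -0.04, -0.02 and 0.04 without male control replicates 1, 3 and 4. Complex II stood at -0.04 without male PLX3397 replicate 1 and -0.02 without male control replicate 3, and complex V at 0.20 without male PLX3397 replicate 2 and 0.05 without replicate 4. The signs of the male medians of complexes I and III thus rested on single libraries. In females, the medians of complexes I, IV and V were 0.05, 0.15 and 0.07 without female control replicate 2, and that of complex V was 0.10 without female PLX3397 replicate 3. Calls in males shifted likewise: as deposited 815 of all genes rose and 1474 fell, and at equal totals 1348 rose and 917 fell. At equal totals 12 subunit genes rose in males and 0 fell.

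**Figure D5:**
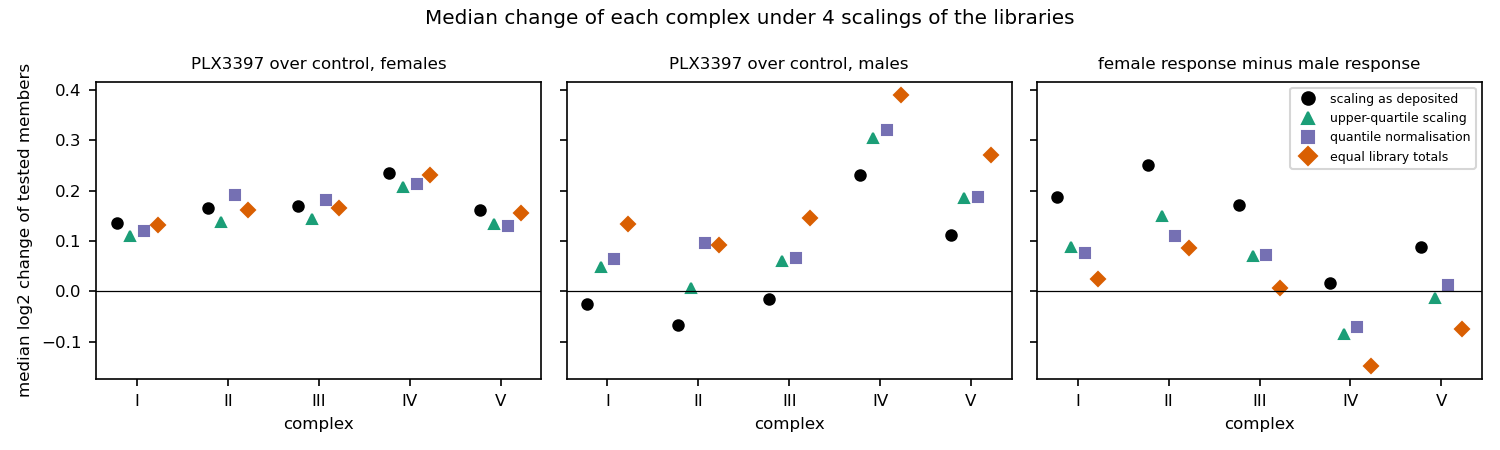
Median log2 change of the tested genes of each complex for the response in females, the response in males and the difference between them, under 4 scalings of the libraries (symbols). The female medians stay above 0 throughout, and the male medians of complexes I, II and III lie below 0 only with the scaling as deposited; the median difference of complex IV lies above 0 only with that scaling.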

How the data were processed

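The kits were SMARTer Ultra Low Input (500 pg of RNA) and Nextera XT (150 pg of cDNA), per the labels' protocols. The authors deposited a table of signal values for 53850 genes in 16 libraries, read counts divided by a factor that, from the values, differs by library and slightly by gene; its formula is not given in the sources used here. GRCm39, Salmon 1.5.2, featureCounts 2.0.1 with Subread, STAR 2.7.9a and bcl2fastq 2.19.1 appear in the submitters' processing notes, with no role or order. Whole reads could not be recovered gene by gene, so no count model or counting interval was used, and precision is given as SD or SE.

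After log2(value + 1), limma 3.58.1 (R 4.3.3, intensity trend) was fitted to the 16 libraries with a mean for each group. Its two-sided p was adjusted by Benjamini-Hochberg over the 19594 genes that reached 10 in 4 or more libraries, for each of 5 comparisons. The members, lists, tests, alternatives and naming rule were chosen with earlier results of these data known. The rule named genes past the test, the 2 highest and the smallest-p genes of each complex, isoforms and partners, subunit c genes, Atp5if1, Ndufa4 and Cox7a2l; Ndufc2, Uqcrfs1, the X-linked genes and the core subunits of complex I were named after their values were seen. The values of 1 complex I gene are not reported here, though counts and medians include it. Symbols were matched for 51029 of the 53850 identifiers. Lengths and chromosomes came from GENCODE M21 on GRCm38, and promoters from RefSeq GRCm38.p6; no coordinates were converted. By blastn 2.17.0 (at least 95% identity over at least 100 bases), 39 of the 88 transcripts shared a stretch with another gene, and 31 overlapped another gene's exons; reads of those stretches may be split between genes. Same-numbered libraries deviated together with correlations of only -0.045 to 0.021, so numbers were not taken as pairs. Alternatives changed the pseudocount, filter, scaling, samples fitted, replicate block, and length and GC trend, and left out libraries. The procedure was also run on simulated data with independent noise for each gene and no shift of whole libraries. That run cannot speak to the scaling of the libraries. Figures used matplotlib 3.10.9 in Python 3.11.15.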

Additional observations from a re-analysis of the deposited data

Results flagged for a closer look

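One library stood away from the other 3 of its group, by a Dixon test at 95%, in 10 of 156 checks of a gene or a complex share in a group; chance alone flags about 1 in 20 groups. In females on PLX3397, replicate 4 was low for 3 subunit genes: Cox8a at 3271 against 4655 to 4772, Cox7a2 at 1545 against 1949 to 2012, and Atp5g3 at 3029 against 3482 to 3574 in the other 3 libraries. Replicate 3 of that group was the one library with any Cox7b2, at 1.17 against 0. In females on control chow, replicate 2 was low for Cox4i1, at 5094 against 6030.3 to 6221.

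In males on control chow, Uqcrc1 was high in replicate 2 (9963 against 8909.9 to 9038) and Atp5a1 in replicate 3 (15393 against 14106 to 14298). Sdha was low in replicate 1 (8649 against 9466 to 9573) and Atp5e in replicate 4 (1036 against 1191 to 1216). The share of complex II in the library total was 0.0553% in replicate 3, against 0.0501% to 0.0510% in the other 3.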

How the results depend on the processing

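The median log2 fold change of each complex in females stayed above 0 in all 28 alternatives, and in males those of complexes IV and V did. Cox4i1 passed in 26 of 28 in females and 25 of 28 in males, Ndufb9 in 20, Ndufb10 in 12, Ndufa9 in 8 and Uqcrc1 in 11. No call turned its direction. The cause was not tested for the changes that follow.

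Subunit genes past the test in males numbered 12 at equal library totals, 4 under upper-quartile scaling, 4 under quantile normalisation, 4 with a minimum value of 50, 1 with no filter, 1 with the length and GC trend removed and 0 with the 2 groups fitted alone. In females they numbered 1 with the 2 groups fitted alone. Between the sexes on PLX3397 they numbered 0 under the 3 scalings, with no filter and with the 2 groups fitted alone, where all genes past the test numbered 571 at equal totals (196 higher and 375 lower in females), 606 under upper-quartile scaling, 467 under quantile normalisation, 669 with no filter and 44 with the 2 groups alone. Male calls over all genes split into 1032 rises and 1224 falls under upper-quartile scaling and 1040 and 1188 under quantile normalisation. The difference between responses had 1 gene past the test at a pseudocount of 5; it could not be fitted to 2 groups alone.

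With male PLX3397 replicate 3 and male control replicate 4 both left out, subunit genes past the test numbered 1 in males, 1 in females and 0 between the sexes on PLX3397, and all genes numbered 1518 in males, 345 between the sexes and 2 for the difference. Leaving out each library in turn gave 0 to 3 subunit genes in males, 0 to 5 in females, 0 to 7 between the sexes on PLX3397 (7 without male PLX3397 replicate 4), and 0 to 0 for the difference and on control chow. All genes numbered 1724 to 2312 in males, 772 to 1143 in females, 332 to 1242 between the sexes on PLX3397, 0 to 6 for the difference and 11 to 20 between the sexes on control chow.

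The replicate block gave 2 subunit genes in males, 2 in females and 0 between the sexes on PLX3397, with 2136, 962 and 863 genes overall. The block with the length and GC trend removed gave 1 subunit gene in males, 0 between the sexes on PLX3397 and 692 genes there. Same-numbered libraries did not correlate best with their own number except in 1 case.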
